A study of Homo sapiens with 9 samples.

Results

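Ferritin and the genes of iron uptake, storage and export were followed in HaCaT cells, a spontaneously immortalised line of human skin keratinocytes, after exposure to either of 2 activators of NRF2. The 9 genes were taken by name from a deposited table of 58676 genes: the ferritin chains FTL and FTH1, the ferritin cargo receptor NCOA4, the uptake genes TFRC, STEAP3 and SLC11A2, the exporter SLC40A1, and IREB2 and ACO1, which encode the iron regulatory proteins. All 9 were in the table, and 8 passed the filter on low counts; SLC40A1 did not. The cells of every group grew in DMEM and were exposed for 14 h, to 1% DMSO as the vehicle control, to 250 nM CDDO-Me or to 10 µM PRL-295. Each group had 3 libraries, called 1 to 3 here. CDDO-Me, or bardoxolone methyl, is an electrophilic triterpenoid, and PRL-295 is given by its code name only. The compounds were used at different doses, and the labels list DMSO for the control alone. Separate cultures behind the 3 libraries are not stated in the labels, so the p-values measure the spread between these samples, which may be technical.

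Ferritin is a hollow protein shell built of heavy chains (FTH1), which oxidise iron, and light chains (FTL), which help it mineralise inside. Cells take up transferrin-bound iron through the transferrin receptor TFRC; STEAP3 reduces the iron in the endosome, SLC11A2 (DMT1) carries it into the cytosol, and NCOA4 delivers ferritin to the lysosome when iron has to be released. The iron regulatory proteins, IRP1 (ACO1) and IRP2 (IREB2), bind a hairpin called the iron-responsive element. Binding in a 5′ UTR blocks translation of the mRNA, and binding in the 3′ UTR of TFRC stabilises it. Ferritin genes are also textbook transcriptional targets of NRF2, which acts on antioxidant response elements upstream of them. RNA sequencing reads the amount of mRNA and not its translation.

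The sequences below are shown because they match this element in the ferritin, exporter and receptor transcripts. They were found in the UTRs of GENCODE release 29 protein-coding genes, on the hg38 genome sequence, on the transcribed strand only, as a C, 5 further bases, the loop CAGTGN and 5 more bases, where the 5 bases on either side of the loop had to pair (Watson-Crick or G with T). Each is printed 5′ to 3′ with the loop in capitals.
FTL 5′ UTR, chr19:48965335-48965363, plus strand: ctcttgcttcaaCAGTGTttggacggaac
FTH1 5′ UTR, chr11:61967574-61967602, minus strand: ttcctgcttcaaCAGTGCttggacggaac
SLC40A1 5′ UTR, chr2:189580661-189580689, minus strand: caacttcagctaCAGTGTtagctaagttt
TFRC 3′ UTR, chr3:196050979-196051007, minus strand: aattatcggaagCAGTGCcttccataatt
TFRC 3′ UTR, chr3:196050575-196050603, minus strand: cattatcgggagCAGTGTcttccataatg
TFRC 3′ UTR, chr3:196050510-196050538, minus strand: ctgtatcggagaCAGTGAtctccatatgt
TFRC 3′ UTR, chr3:196050463-196050491, minus strand: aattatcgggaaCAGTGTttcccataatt
FTL and FTH1 have the same upper stem, while those of SLC40A1 and of the 4 TFRC elements differ from it. Such a match was found in the 5′ UTR of 3 of the 9 genes, against 36 of 19043 genes with a 5′ UTR (0.189%). In 3′ UTRs it was found in 1 of the 9, against 132 of 19146 (0.689%). SLC11A2, IREB2, ACO1, NCOA4 and STEAP3 had no match to these letters, which says nothing of other forms of the element.

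Libraries held 23383800 to 32942156 counted reads. CDDO-Me library 1 stood apart, with 14543 genes detected against 17821 to 23271 in the other 8 libraries, so results are given with and without it where it changes them. How far each gene deviated in a library from its mean log2 CPM was related to GC content, with correlations across genes (a description) of 0.206 to 0.271 in DMSO, -0.546 to -0.0168 in CDDO-Me and -0.333 to 0.269 in PRL-295. Within CDDO-Me, library 2 held the -0.546 and library 1 the -0.0168. Leaving out library 1 therefore keeps the library with the -0.546, and values without library 2 are also given for some genes. All 8 keratinocyte markers exceeded 1 FPKM (fragments per kilobase of gene, scaled to the library's total of reads), and their summed FPKM was 4112 to 4640 in DMSO, 5225 to 6029 in CDDO-Me and 3201 to 3429 in PRL-295. Of 6 erythroid markers and 7 markers of macrophages and other immune cells, none exceeded 1 FPKM in any library, and HBA2 and SLC4A1 were at 0 in all. Among 6 fibroblast, 5 melanocyte and 3 endothelial markers, COL1A1 alone exceeded 1 FPKM, and COL3A1, DCN, LUM, TYR and PECAM1 were at 0. In such bulk RNA, fewer cells of a type and less RNA per cell cannot be told apart.

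By FPKM, a scale per length that compares genes as far as the deposited gene lengths hold, the ferritin chains stood far above the rest of the iron genes. In DMSO the order ran from FTL at 957 ± 55.1 FPKM and FTH1 at 548 ± 111 FPKM (SD, n = 3, as for all values below) through NCOA4, TFRC, STEAP3 and SLC11A2 to the regulators. IREB2 at 2.80 ± 0.234 FPKM and ACO1 at 2.52 ± 0.226 FPKM had overlapping values and were not separated, and SLC40A1 was at 0. FTL ranked 26th to 31st among protein-coding genes in the DMSO libraries, 10th to 14th with CDDO-Me and 8th to 11th with PRL-295. FTH1 ranked 37th to 65th, 17th to 33rd and 35th to 40th. With CDDO-Me the values of NCOA4 and TFRC overlapped, as did those of IREB2 and SLC11A2 and those of SLC11A2 and ACO1. With PRL-295 the values of SLC11A2, IREB2 and ACO1 overlapped from one to the next. The FTH1 level rests on a deposited gene length of 2030 bases, whereas its longest GENCODE transcript has 1229 bases. Deposited lengths were also well above the longest transcript for SLC11A2 (9823 against 4348 bases), IREB2 (10806 against 6354) and TFRC (7887 against 5111). The gap was small for ACO1 (7555 against 7466), and the FTL length was the same in both, 878 bases. The order of the genes, and which of them overlapped, therefore rest on the deposited lengths.

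**Figure D1:**
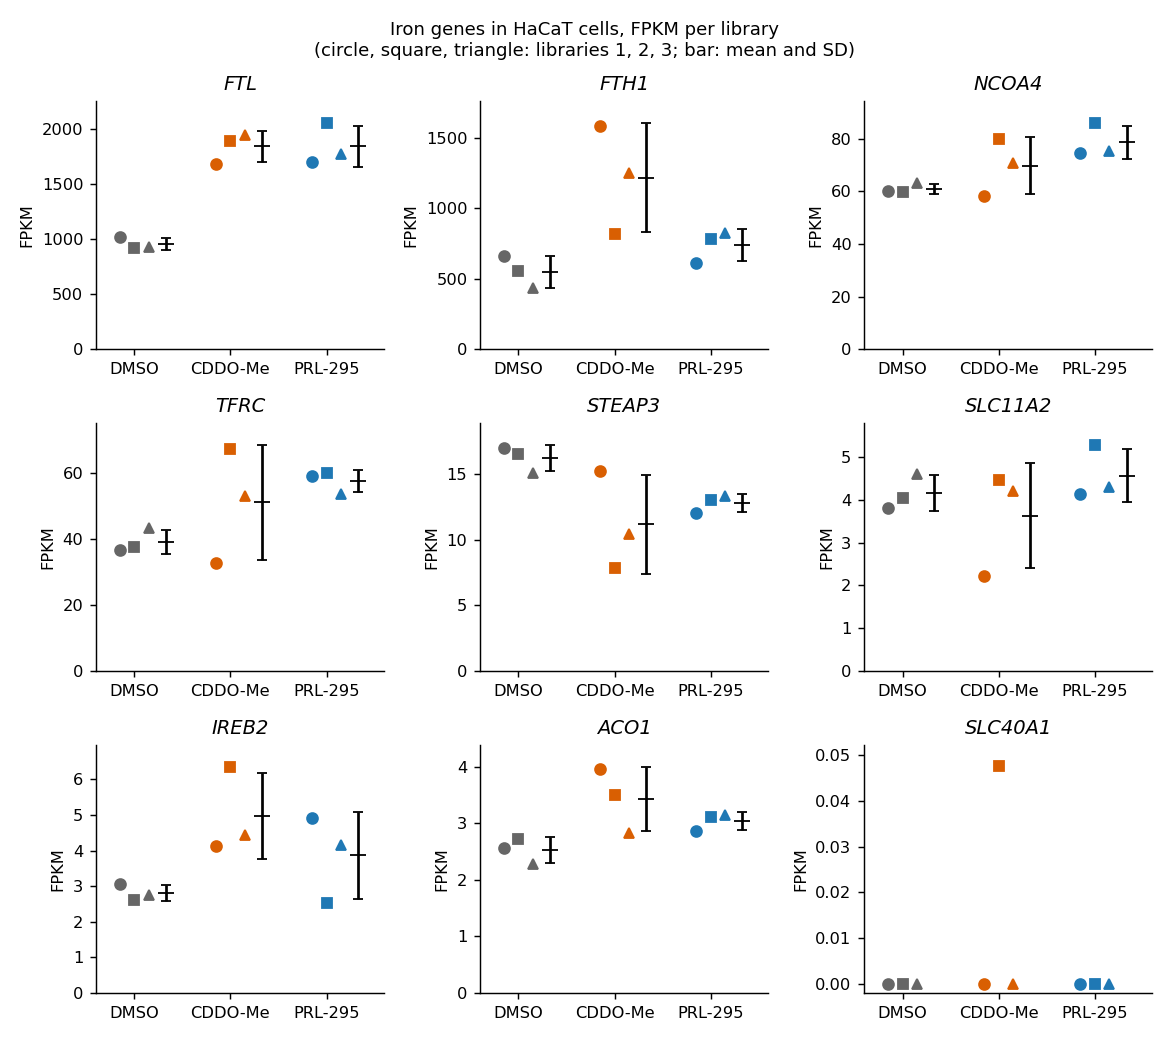
FPKM of the 9 iron genes (vertical axes, 1 panel a gene, each from about 0 on its own scale) in the DMSO, CDDO-Me and PRL-295 groups; symbols are libraries 1 to 3 and bars the mean and SD. FTL lies between 922.7 and 1021 FPKM in DMSO and between 1687 and 2055 FPKM in the compound libraries, while FTH1 spreads from 816.5 to 1582 FPKM with CDDO-Me.

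FTL, the light chain (ENSG00000087086, chr19:48965301-48966878, plus strand), rose with both compounds. It measured 1021, 922.7 and 928.7 FPKM in DMSO libraries 1 to 3. With CDDO-Me it measured 1687, 1898 and 1950 FPKM, a mean of 1845 ± 139. With PRL-295 it measured 1707, 2055 and 1775 FPKM, a mean of 1846 ± 184. Every compound library lay above every DMSO library, and the compound groups overlapped each other. The log2 fold change was 0.94 with CDDO-Me (95% interval 0.71 to 1.18, edgeR adjusted p = 0.000584), a 1.92-fold higher level. With PRL-295 it was 0.98 (0.74 to 1.21, edgeR adjusted p = 0.00161), or 1.97-fold. Over the 20 processing alternatives FTL passed the threshold every time in both comparisons, with adjusted p from 6.48e-10 to 0.00727 for CDDO-Me and from 2.43e-10 to 0.0224 for PRL-295.

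FTH1, the heavy chain (ENSG00000167996, chr11:61959718-61967660, minus strand), rose with CDDO-Me. It measured 657.5, 551.8 and 434.8 FPKM in DMSO, and 1582, 816.5 and 1250 FPKM with CDDO-Me, a mean of 1216 ± 384. The groups did not overlap, although CDDO-Me library 2 lay far closer to DMSO than library 1 did. This was a log2 fold change of 1.15 (0.65 to 1.65, edgeR adjusted p = 0.0128), a 2.22-fold higher level. Without DMSO library 2 the log2 fold change was 1.17 (edgeR adjusted p = 0.0606) and without DMSO library 3 it was 1.01 (edgeR adjusted p = 0.0535); the call held in the other 18 of 20 alternatives, and adjusted p ran from 1.64e-14 to 0.0606. Without CDDO-Me library 1, which held the highest value, it was 0.91 (edgeR adjusted p = 0.0142).

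With PRL-295, FTH1 measured 613.1, 781.3 and 822.8 FPKM, a mean of 739 ± 111. PRL-295 library 1 fell within the DMSO values and the other 2 libraries above them. The log2 fold change of 0.46 (-0.04 to 0.96) did not pass the test (edgeR adjusted p = 0.430), and with no filter on low counts it did (0.48, edgeR adjusted p = 0.0199; 0.0199 to 0.818 over the 20 alternatives). In the fit with no filter 2.83% of all genes passed with PRL-295, against 0.684% with the filter.

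Of the 8 tested genes, FTL and FTH1 were the 2 that passed the test with CDDO-Me, both higher. Across all 16239 tested genes 9.22% passed in that comparison, 4.65% higher and 4.57% lower. With PRL-295 FTL was the 1 gene that passed, against a background of 0.684%, 0.462% higher and 0.222% lower. The median log2 fold change over the 8 genes was 0.41 with CDDO-Me and 0.43 with PRL-295, beside 0.01 and -0.01 over all tested genes. These medians carry no correction for GC content. With a correction for GC content and length, the tested genes other than the ferritin chains ran from -0.55 (SLC11A2) to 0.31 (ACO1) with CDDO-Me. With PRL-295 they ran from -0.16 (STEAP3) to 0.45 (TFRC). The 2 comparisons share the DMSO libraries. Values of the groups did not overlap for 4 of the 8 genes with CDDO-Me (FTL, FTH1, IREB2 and ACO1), where 31.8% of all tested genes did the same. With PRL-295 this was so for 5 of 8 (FTL, TFRC, ACO1, NCOA4 and STEAP3), against 27.2%.

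**Figure D2:**
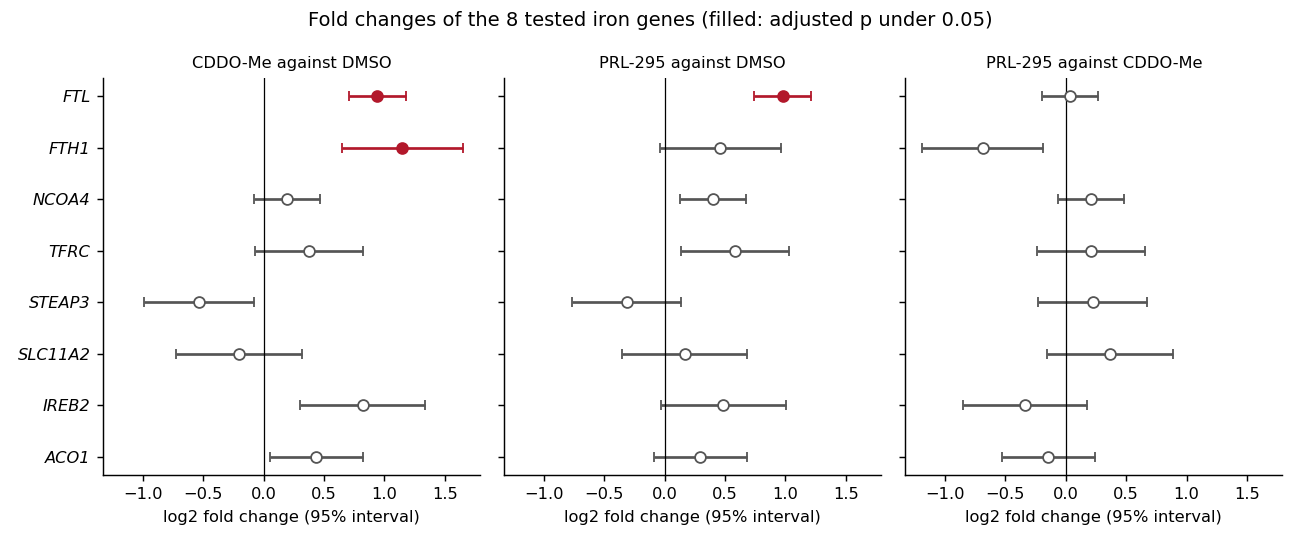
Log2 fold changes (horizontal axis) of the 8 tested iron genes in the 3 comparisons, with 95% intervals from edgeR; filled points have an adjusted p under 0.05. The filled points are FTL and FTH1 for CDDO-Me and FTL for PRL-295, and none is filled where PRL-295 is set against CDDO-Me.

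The balance of heavy to light chain mRNA was read as the ratio of FTH1 to FTL FPKM within each library, which library scaling cannot alter. It was 0.644, 0.598 and 0.468 in DMSO, 0.938, 0.430 and 0.641 with CDDO-Me, and 0.359, 0.380 and 0.464 with PRL-295. The size of this ratio rests on the deposited FTH1 length of 2030 bases, above that of its longest GENCODE transcript. In plain counts, FTH1 to FTL ran from 0.830 to 2.17 over the libraries, so which chain has more mRNA was not settled. All libraries share the length, so it does not alter differences between groups. FTL has 56.3% GC and FTH1 50.1%, and the ratio was not corrected for GC content. All 3 PRL-295 libraries lay below all DMSO libraries, whereas the CDDO-Me libraries spanned the DMSO range on both sides. The mean log2 ratio was lower by 0.50 with PRL-295 than in DMSO (a difference of -0.50; two-sided exact permutation p = 0.1, the smallest that 3 against 3 can give). For CDDO-Me against DMSO the difference was 0.17 (exact permutation p = 0.8), and it was -0.11 without CDDO-Me library 1. For PRL-295 against CDDO-Me it was -0.68 (exact permutation p = 0.2). None of these differences could pass a threshold of 0.05 with 3 libraries a group.

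**Figure D3:**
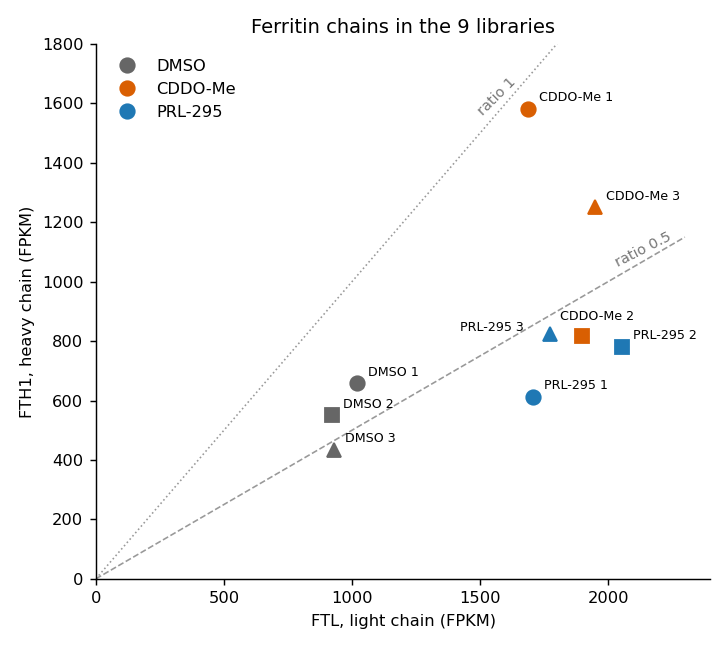
FTH1 FPKM (vertical axis) against FTL FPKM (horizontal axis) in the 9 libraries, both axes from 0, with grey lines of constant FTH1 to FTL ratio as labelled. DMSO libraries sit at the lower left; CDDO-Me and PRL-295 libraries overlap in FTL, and CDDO-Me libraries 1 and 3, at 1582 and 1250 FPKM of FTH1, stand above all PRL-295 libraries.

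Both chains together took 0.223%, 0.193% and 0.170% of all counted reads in DMSO, 0.469%, 0.332% and 0.425% with CDDO-Me, and 0.274%, 0.339% and 0.323% with PRL-295. The PRL-295 share lay above that of every DMSO library, and the CDDO-Me and PRL-295 shares overlapped. FTL had 21729 to 48862 counts a library and FTH1 28013 to 102452, so counting error was small beside the spread between libraries. Both chains have many processed pseudogenes with near-identical sequence, to which reads could be lost: 16 for FTL, 6 of them with counts, and 25 for FTH1, 14 with counts. The pseudogenes with the most counts over all libraries were FTH1P7 (299), FTLP14 (236) and FTH1P2 (220). Pseudogene counts came to 0% to 0.221% of those of FTL with its pseudogenes and 0.0985% to 0.436% of those of FTH1 with its own. Adding them to the parent genes ended neither call. Reads that match a parent and a pseudogene equally well may be counted for neither, so these counts do not measure such a loss.

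NCOA4 (ENSG00000266412, chr10:46005088-46030714, minus strand), the receptor that takes ferritin to the lysosome, passed the test with neither compound. It measured 60.1, 59.6 and 63.1 FPKM in DMSO, 58.5, 80.1 and 70.8 with CDDO-Me, and 74.7, 85.9 and 75.4 with PRL-295. All PRL-295 libraries exceeded all DMSO libraries, and CDDO-Me library 1 fell below them. Its log2 fold change was 0.40 with PRL-295 (0.12 to 0.67, edgeR adjusted p = 0.200) and 0.19 with CDDO-Me (edgeR adjusted p = 0.365). The CDDO-Me value became 0.30 without CDDO-Me library 1, 0.06 without CDDO-Me library 2 and -0.04 with a correction for GC content and length. The same correction left 0.15 with PRL-295 (edgeR adjusted p = 0.780).

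TFRC (ENSG00000072274, chr3:196027183-196082189, minus strand), the receptor that brings in transferrin iron, did not pass the test with either compound in the fit of all 9 libraries after the filter on low counts. Its FPKM was 36.6, 37.7 and 43.3 in DMSO and 59.0, 60.0 and 53.7 with PRL-295, where every library lay above the DMSO range. With CDDO-Me it was 32.9, 67.4 and 52.9: libraries 2 and 3 lay above the DMSO range and library 1 below it. TFRC had a log2 fold change of 0.58 with PRL-295 (0.14 to 1.03, edgeR adjusted p = 0.250; 0.00148 to 0.745 over the 20 alternatives) and 0.38 with CDDO-Me (-0.07 to 0.82, edgeR adjusted p = 0.270; 0.0102 to 0.933). Without CDDO-Me library 1 it passed in both: 0.61 with CDDO-Me (edgeR adjusted p = 0.0102) and 0.59 with PRL-295 (edgeR adjusted p = 0.0203). With PRL-295 it also passed with no filter (0.60, edgeR adjusted p = 0.00148) and in the 6 compared libraries (0.60, edgeR adjusted p = 0.0181). Of all genes, 2.83% passed with no filter and 4.22% in the 6 compared libraries. TFRC has 41.5% GC, below the 49.2% median of tested genes, and after a correction for GC content and length its CDDO-Me value was -0.04. Without CDDO-Me library 2, and with no such correction, the CDDO-Me value was 0.11 (edgeR adjusted p = 0.787).

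STEAP3 (ENSG00000115107, chr2:119223831-119265652, plus strand), the endosomal reductase, was the 1 of the uptake genes with negative values for both compounds. It measured 16.97, 16.5 and 15.1 FPKM in DMSO, 15.3, 7.84 and 10.5 with CDDO-Me, and 12.01, 13.0 and 13.3 with PRL-295. The PRL-295 libraries lay below all DMSO libraries, and CDDO-Me library 1 lay within the DMSO range. The log2 fold change of -0.54 with CDDO-Me (-0.99 to -0.08) did not pass (edgeR adjusted p = 0.128; 0.00561 to 0.458 over the 20 alternatives), and without CDDO-Me library 1 it did (-0.83, edgeR adjusted p = 0.00561), as it did with no filter (-0.53, edgeR adjusted p = 0.0282). With PRL-295 it was -0.31 (edgeR adjusted p = 0.580). An antisense gene, STEAP3-AS1, overlaps it with 0 to 32 counts a library, and the strand setting of the counting is not given in the sources used here.

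SLC11A2 (ENSG00000110911, chr12:50979401-51028566, minus strand), the divalent metal transporter, showed no difference past the test. Its FPKM was 3.82, 4.05 and 4.62 in DMSO, 2.22, 4.46 and 4.21 with CDDO-Me, and 4.14, 5.28 and 4.30 with PRL-295, and the 3 groups overlapped. SLC11A2 had a log2 fold change of -0.20 with CDDO-Me (-0.72 to 0.32, edgeR adjusted p = 0.638) and 0.16 with PRL-295 (-0.35 to 0.68, edgeR adjusted p = 0.858). CDDO-Me library 1 held the lowest value, and without it the CDDO-Me value was 0.05. Without CDDO-Me library 2 the value was -0.40.

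SLC40A1 (ENSG00000138449, chr2:189560579-189583758, minus strand) encodes ferroportin, the iron exporter of mammalian cells. It had 0 counts in 8 libraries and 6 counts, or 0.0476 FPKM, in CDDO-Me library 2. A count of 0 allows up to 3 counts, which is 0.0911 to 0.128 CPM (counts scaled to the library total) depending on the library and covers counting error only. A difference between groups was not detectable at this depth.

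The mRNAs of the 2 iron regulatory proteins had low levels, and neither passed the test with either compound. IREB2 (ENSG00000136381, chr15:78437431-78501456, plus strand), which encodes IRP2, measured 3.06, 2.599 and 2.76 FPKM in DMSO. With CDDO-Me it measured 4.13, 6.34 and 4.43, all above the DMSO range, and with PRL-295 4.92, 2.52 and 4.15, where library 2 fell below it. The log2 fold change with CDDO-Me was 0.82 (0.31 to 1.34) and did not pass the threshold (edgeR adjusted p = 0.0518). It passed in 8 of 20 alternatives, among them DESeq2 (adjusted p = 0.00912) and the fits without CDDO-Me library 1 (edgeR adjusted p = 0.0247), PRL-295 library 1 (0.0496) or PRL-295 library 2 (0.0153), with adjusted p from 0.000326 to 0.304 over the 20. IREB2 has the lowest GC content of the 9 genes, 38.3%, and the correction for GC content and length left 0.22 (edgeR adjusted p = 0.304). Without CDDO-Me library 2 the CDDO-Me value was 0.59 (edgeR adjusted p = 0.164). With PRL-295 the log2 fold change was 0.49 (-0.03 to 1.00, edgeR adjusted p = 0.415).

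ACO1 (ENSG00000122729, chr9:32384603-32454769, plus strand) encodes IRP1, which is a cytosolic aconitase while it holds an iron-sulfur cluster. It measured 2.56, 2.73 and 2.28 FPKM in DMSO, 3.95, 3.50 and 2.82 with CDDO-Me, and 2.86, 3.11 and 3.14 with PRL-295. All 6 compound libraries lay above the 3 DMSO libraries. Log2 fold changes were 0.44 with CDDO-Me (0.05 to 0.82, edgeR adjusted p = 0.141) and 0.29 with PRL-295 (-0.09 to 0.68, edgeR adjusted p = 0.532), and neither passed the test.

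**Figure D4:**
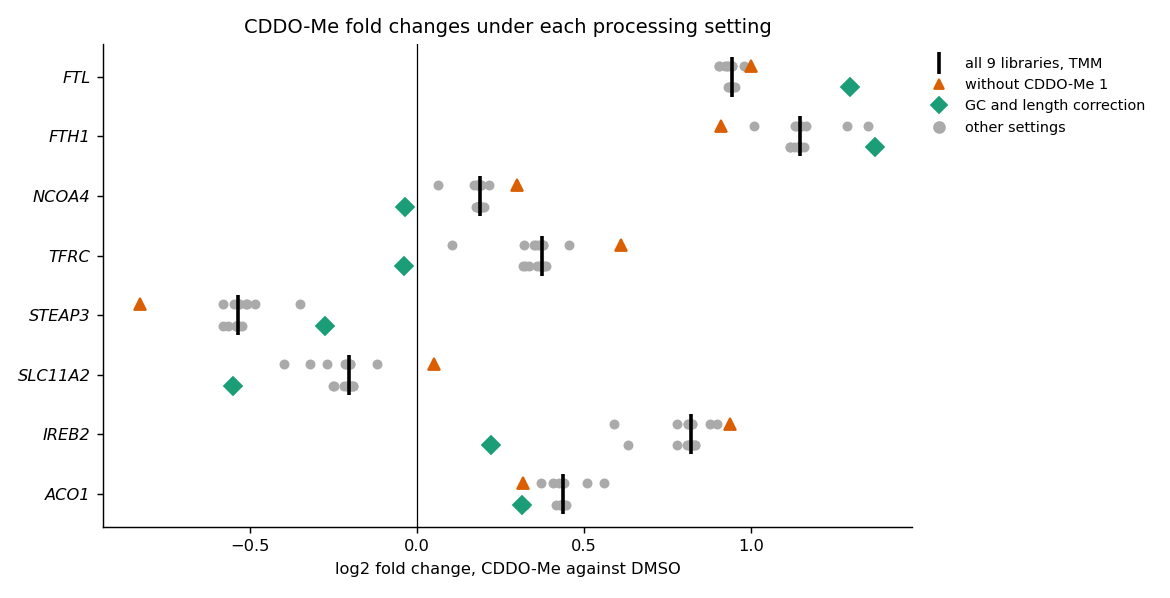
Log2 fold change of each tested iron gene with CDDO-Me against DMSO (horizontal axis) under the 20 processing alternatives; the black bar is the fit of all 9 libraries, the triangle the fit without CDDO-Me library 1 and the diamond the correction for GC content and length. FTL and FTH1 stay well right of 0 throughout, whereas TFRC and NCOA4 reach -0.04 with the correction and SLC11A2 moves to 0.05 without CDDO-Me library 1.

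Set directly against each other, at their different doses, PRL-295 and CDDO-Me gave no called difference for any of the 8 genes in edgeR, while 1.59% of all tested genes passed, 0.905% higher with PRL-295 and 0.684% lower. The values of the 2 groups overlapped for all 8, where 24.6% of tested genes did not overlap. FTH1 was the 1 of the 8 genes with an unadjusted p under 0.05, where 17.2% of all tested genes had one; its log2 difference was -0.69 (-1.19 to -0.19, edgeR adjusted p = 0.156), lower with PRL-295. DESeq2 and limma called 0 of the 8 as well, and edgeR with no filter called 1, FTH1 (-0.68, edgeR adjusted p = 0.000114; 0.000114 to 0.338 over the 20 alternatives). With no filter 4.28% of all genes passed in this comparison. For FTL the difference was 0.03 (-0.20 to 0.27, edgeR adjusted p = 0.909), and the interval spans both directions. TFRC (0.21), NCOA4 (0.21), STEAP3 (0.22), SLC11A2 (0.37), ACO1 (-0.14) and IREB2 (-0.33) had log2 differences whose intervals all included 0. Without CDDO-Me library 1 the differences were -0.44 for FTH1, -0.02 for FTL, -0.02 for TFRC, 0.10 for NCOA4, 0.52 for STEAP3, 0.12 for SLC11A2, -0.02 for ACO1 and -0.45 for IREB2, and none passed the test.

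Around these genes, 63 further genes of iron handling were read as lists, and 51 of them were tested. With CDDO-Me 2 rose and 5 fell, beside 4.65% and 4.57% of all tested genes, and the median log2 fold change was -0.09. An unadjusted p under 0.05 was found for 15 of the 51, and for 26% of all tested genes. With PRL-295 none passed in edgeR, where 0.684% of all tested genes did, and the median was 0.09. DESeq2 called 2 of the further genes with PRL-295, and 4.44% of all genes. In edgeR an unadjusted p under 0.05 was found with PRL-295 for 12 of the 51, and for 12.9% of all tested genes. The CDDO-Me count fell in fits where the share of all tested genes called, 9.22% with all libraries, fell too. It was 1 without DMSO library 1 (2.81% of all tested genes) or DMSO library 2 (2.37%). Without DMSO library 3 (3.70%) or CDDO-Me library 2 (3.71%) it was 2. Without CDDO-Me library 3 (5.58%) or PRL-295 library 3 (4.57%) it was 3, as with the correction for GC content and length (6.79%). Without CDDO-Me library 1, 3 passed with PRL-295, where 3.47% of all tested genes passed.

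Among 12 other genes of iron uptake and reduction, 8 tested, LCN2 fell with CDDO-Me. LCN2 encodes lipocalin 2, which binds iron carried by siderophores. It measured 64.6 ± 11.6 FPKM in DMSO, 35.0 ± 4.58 with CDDO-Me and 59.3 ± 4.26 with PRL-295, a log2 fold change of -0.89 with CDDO-Me (edgeR adjusted p = 0.00699) that passed in all 20 alternatives. It was the 1 gene of the lists to differ between the compounds (0.79, edgeR adjusted p = 0.0306, higher with PRL-295), a call lost in 8 of 20 alternatives, among them the fits without DMSO library 2 or any 1 of the 6 compound libraries.

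Among 7 iron chaperones and genes that handle ferritin or IRP2, 5 tested, FBXL5 rose with CDDO-Me. FBXL5 is the iron-sensing subunit of the ubiquitin ligase that degrades IRP2. It measured 3.14 ± 0.439 FPKM in DMSO, 5.39 ± 1.14 with CDDO-Me and 4.597 ± 0.122 with PRL-295, a log2 fold change of 0.77 with CDDO-Me (edgeR adjusted p = 0.0320) and 0.58 with PRL-295 (edgeR adjusted p = 0.227). GLRX3, a glutaredoxin that passes on iron-sulfur clusters, had 0.72 with PRL-295 without passing (edgeR adjusted p = 0.190). The FBXL5 call held in 11 of 20 alternatives and ended with the correction for GC content and length, which left 0.39.

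Beside LCN2, 4 further list genes fell with CDDO-Me, 2 of 18 tested genes of mitochondrial iron import and iron-sulfur assembly and 2 of 9 tested genes of cytosolic iron-sulfur assembly, where 4.57% of all tested genes fell. Of the mitochondrial genes, GLRX5, a glutaredoxin of cluster transfer, had a log2 fold change of -0.53 with CDDO-Me (edgeR adjusted p = 0.0234), and SLC25A28, the iron importer mitoferrin 2, had -0.53 (edgeR adjusted p = 0.0467). Of the cytosolic assembly genes, NUBP2, a scaffold subunit, had -0.68 (edgeR adjusted p = 0.0123) and CIAO1, which helps target clusters to proteins, had -0.43 (edgeR adjusted p = 0.0410). The median over the 9 was -0.32 with CDDO-Me and -0.06 with PRL-295. With the correction for GC content and length none of the 4 passed; GLRX5 (-0.55) and CIAO1 (-0.37) kept values near those above, while NUBP2 (-0.38) and SLC25A28 (-0.18) moved by over 1.5 times. The calls held in 17 (NUBP2), 13 (GLRX5), 9 (CIAO1) and 8 (SLC25A28) of 20 alternatives.

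None of the 7 tested genes of export and systemic iron regulation passed with either compound; PROM2, which carries ferritin out of the cell in vesicles and had the highest mean CPM of the list, had a log2 fold change of -0.28 with CDDO-Me (edgeR adjusted p = 0.198) and -0.37 with PRL-295 (edgeR adjusted p = 0.252). In 3 other lists without a PRL-295 call, the genes with the highest mean CPM, a scale not adjusted for length, had log2 fold changes with PRL-295 of -0.06 for the metal importer SLC39A14, 0.40 for the mitochondrial chaperone HSPA9 and 0.09 for the cytosolic assembly factor CIAPIN1. Of 5 tested further mRNAs reported to hold an iron-responsive element, CDC42BPA, a kinase of the actin cytoskeleton, rose with CDDO-Me. It measured 2.00 ± 0.320 FPKM in DMSO, 4.22 ± 0.763 with CDDO-Me and 2.10 ± 0.804 with PRL-295, a log2 fold change of 1.08 (edgeR adjusted p = 0.0322) that held in 15 of 20 alternatives.

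**Figure D5:**
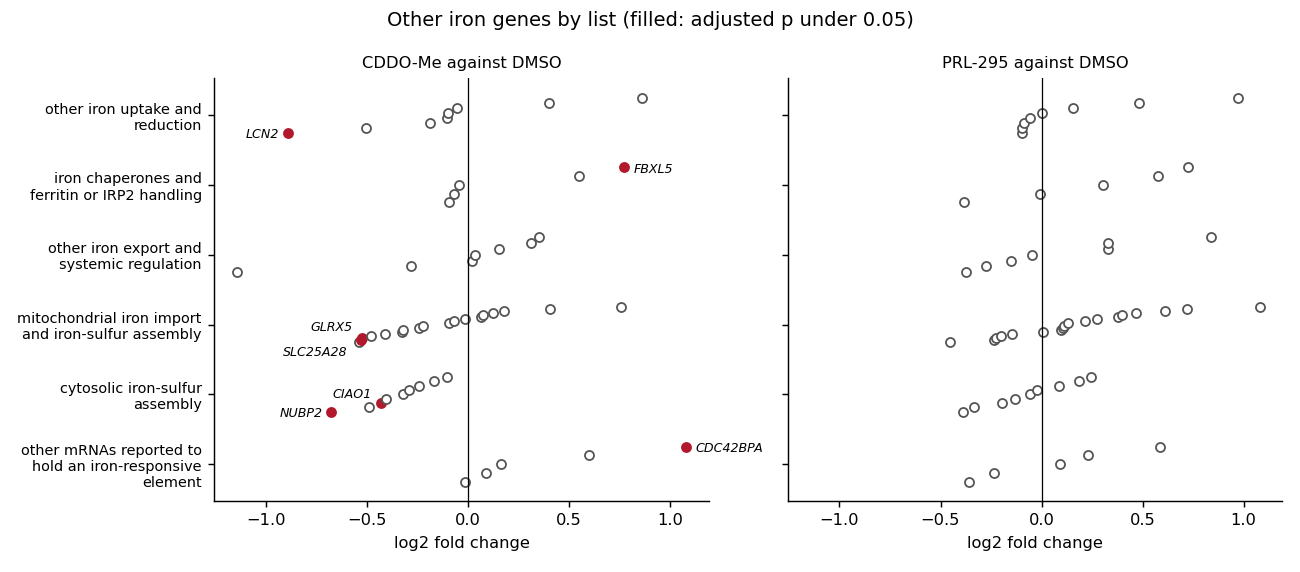
Log2 fold changes (horizontal axis) of the 51 further tested iron genes with CDDO-Me and with PRL-295, each against DMSO, by list (vertical axis), with a point for each gene in each list that holds it; filled, labelled points have an adjusted p under 0.05. With CDDO-Me 2 points are filled to the right of 0 and 5 to the left, and with PRL-295 none.

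The profiles most like those of the ferritin chains were sought among 13122 tested genes that averaged 1 CPM or more, as the root mean square difference of log2 CPM over the 9 libraries after centring each gene. Near FTL were GSR (0.0875) and MSANTD3 (0.109), against 0.461 for FTL itself around its own mean. GSR is glutathione reductase. For FTH1 the nearest were PANX2 (0.195), DUSP4 (0.198) and SH2D5 (0.204), farther than these 2 from FTL, with 0.543 for FTH1 itself. For TFRC they were TAF7 (0.0556), GNPAT (0.0640) and IARS2 (0.0661), with 0.350 for TFRC itself. These values are descriptions of 9 libraries, which differ in depth and in how their values relate to GC content.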

How the data were processed

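Total RNA of HaCaT cells was sequenced in 9 libraries, 3 a group. Per the labels, STAR 2.5 aligned the paired-end reads to hg38 and HTSeq 0.6.1 counted them by gene; the annotation release and strand setting are not given in the sources used here. The deposited counts are unnormalised whole numbers of reads, with a deposited gene length in bases. The deposited FPKM, calculated by the authors from count and length, equalled the count scaled by gene length and by the library's total of counts in 100% of values within 0.1%. Adding gene names changed 0 values between the deposited tables.

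Counts were tested in edgeR 4.0.16 (R 4.3.3) by the quasi-likelihood test, with TMM scaling and the filterByExpr low-count filter by group, in 1 fit of all 9 libraries, with Benjamini-Hochberg adjustment over 16239 genes and a threshold of 0.05. Intervals are 95% intervals of that fit. Levels are deposited FPKM as mean ± SD. The FTH1 to FTL ratio was tested by an exact permutation over samples. The 20 alternatives were DESeq2 1.42.0, DESeq2-style size factors, no scaling, no filter, a minimum of 1 CPM in 3 libraries, limma 3.58.1 on log2(FPKM + 1) and log2(FPKM + 0.1), the replicate number as a block, the 6 compared libraries only, a GC and length correction, pseudogene reads added to ferritin, and each library left out in turn. The fit was tested on simulated data.

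The 9 genes and all lists were chosen with earlier results of these data known. Named in the text are the 9 genes, the called genes of each further list or, where none was called, the gene of highest mean CPM (given for the comparisons with DMSO), the 3 ferritin pseudogenes with most counts and the 3 nearest profiles of FTL, FTH1 and TFRC; some items that this rule names are not reported here. All 106 list symbols were matched, 6 by an older symbol. Libraries of 1 group differed by 11.3 to 120 times the counting noise per gene (chi-square), so none was counted as a duplicate. Floors and shares cover counting error only, as no molecular identifiers tell PCR copies apart. Positions of genes are those deposited with the counts, and positions in UTRs are from GENCODE 29, on hg38.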

Additional observations from a re-analysis of the deposited data

How the results depend on the processing

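Of 480 alternative values for the 8 tested iron genes in 3 comparisons, 452 kept direction and side of the threshold, 16 newly passed it, 2 no longer passed (FTH1 with CDDO-Me, without DMSO library 2 or 3) and 10 changed sign, all among uncalled differences. The cause of these changes was not tested. The 10 changes of sign were, for FTL between the compounds, -0.00145 in limma with either pseudocount, -0.26 with the GC and length correction, -0.0195 without CDDO-Me library 1 and -0.0616 without PRL-295 library 2 (-0.0616 to 0.113 with a library left out); for TFRC and NCOA4 with CDDO-Me, -0.0399 and -0.0367 with that correction; for IREB2 between the compounds, 0.10 with it; and without CDDO-Me library 1, 0.0520 for SLC11A2 with CDDO-Me, and -0.0235 for TFRC between the compounds (-0.0235 to 0.50 with a library left out). The log2 FTH1 to FTL ratio with CDDO-Me, not among the 480, also changed sign without that library (-0.11). With the same correction FTL had 1.30 with CDDO-Me and 1.03 with PRL-295, and FTH1 1.37 with CDDO-Me.

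Called iron genes numbered 2 with CDDO-Me (4 with no filter, 1 to 5 with a library left out), 1 with PRL-295 (3 with no filter, 2 in the 6 compared libraries, 1 to 2 with a library left out) and 0 between the compounds (1 with no filter, 0 with a library left out). The single libraries were DMSO 2 and DMSO 3, each leaving 1, and CDDO-Me 1, leaving 5 and 2. Of all tested genes, 9.22% were called with CDDO-Me and 0.684% with PRL-295 in the fit of all 9 libraries. Without DMSO 2 or DMSO 3 the CDDO-Me share was 2.37% or 3.70%. Without CDDO-Me 1 the shares were 16.5% with CDDO-Me and 3.47% with PRL-295. With no filter they were 8.59% and 2.83%, with 4.28% between the compounds. In the 6 compared libraries 4.22% were called with PRL-295. Of the further iron genes, the 7 with CDDO-Me became 4 with the replicate block (5.32% of all tested genes) or in the 6 compared libraries (7.80%). They became 3 with the GC and length correction (6.79%) and 1 to 9 with a library left out. The 0 with PRL-295 became 2 with DESeq2 (4.44% of all genes), 3 with no filter (2.83%), 2 in the 6 compared libraries (4.22%) and 0 to 3 with a library left out. The 1 between the compounds became 5 with DESeq2 (6.85% of all genes), 5 with no filter (4.28%), 0 in the 6 compared libraries (0.293%) and 0 to 1 with a library left out. With a library left out, the log2 FTH1 to FTL ratio ran from -0.11 to 0.46 with CDDO-Me, from -0.64 to -0.41 with PRL-295 and from -0.96 to -0.40 between the compounds. For all genes, 1497, 111 and 258 called became 864 to 2511, 60 to 825 and 45 to 1250 over settings with all libraries of a comparison, and 400 to 2803, 33 to 589 and 60 to 285 with a library left out.

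Libraries share replicate numbers across groups, yet the numbers do not pair them: deviations of same-numbered libraries correlated at -0.137 to 0.104, 1 of 9 pairs over 0.1, and 3 of 9 libraries correlated best with their own number. With the replicate block the called iron genes stayed at 2, 1 and 0, and 864, 60 and 156 of all genes were called. FTL had at least 21729 counts in each library, and SLC40A1 had 6 in 1 library and 0 in the others.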
